A study of Mus musculus with 16 samples.

Results

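Spinal cord cells at 14 d after injury were compared with cells of uninjured cord, with control and Ryk-deficient mice pooled, so that every annotated cell type could be read for its difference from the uninjured state. The mice were chosen by their sample titles: all 4 mice titled 14 and all 4 titled nsci (called uninjured here), which are 8 of the 16 mice of the series and hold 8759 cells. In each group, 2 mice were Ryk+/+,GFAPcreERT2 (called WT here) and 2 were Rykfl/fl,GFAPcreERT2 (called cKO). All were 8 to 10 weeks old and had received tamoxifen, which activates the Cre, so the control mice carry the Cre and the drug as well. The Cre is driven by the human GFAP promoter, which acts mainly in astrocytes, and Ryk was therefore deleted in at most those cells that expressed the Cre. The injury was a lesion of the dorsal columns at cervical level 5, and the treatment label of the uninjured mice is sham, while the paper calls them uninjured. Each library came from the dissociated tissue of 1 mouse.

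The 14 d mice gave 4949 cells and 25685452 unique molecular identifiers (UMIs, each standing for 1 captured RNA molecule), and the uninjured mice gave 3810 cells and 7929629 UMIs. Values are given throughout in the order WT replicate 1, WT replicate 2, cKO replicate 1 and cKO replicate 2. Totals were 3074681, 2117284, 774242 and 1963422 UMIs in the uninjured mice, and 3074365, 8786767, 6559483 and 7264837 at 14 d. Median UMIs per cell were 2306.5, 1057, 1998.5 and 1040.5 uninjured, against 2112, 3637, 2676 and 2683 at 14 d. Depth thus differed between the groups, and within the uninjured mice cKO replicate 1 was small, with 208 cells. Of the 8746 barcodes in these libraries, 13 were found in 2 or more of them.

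Before any comparison, the uninjured mice fell into pairs by replicate number. Over all cells, the gene model Gm42418 (ENSMUSG00000098178.1, chr17:39846958-39848788) stood at 5840, 135000, 11500 and 149000 CPM (counts-per-million, from UMIs) uninjured, against 41400, 29000, 36900 and 24800 at 14 d. The gene of the synaptic scaffold gephyrin, Gphn (ENSMUSG00000047454.12, chr12:78226379-78684772), stood at 695, 12300, 594 and 9520 uninjured and at 1800, 1540, 1720 and 1550 at 14 d. Both uninjured replicates 2 were thus high, both replicates 1 low, and the 14 d mice lay between them. The replicates 2 also held 19.4% and 20% of their cells in Cluster 2, against 1.12% and 2.4% in the replicates 1. The animal numbers of both replicates 1 lie below 10000 and those of the other 6 mice above it, and the names given to the cells carry another condition than the titles for both uninjured replicates 2 and both 14 d replicates 2. Counts of called genes are therefore also given for the uninjured replicates 2 alone, for the replicates 1 alone (an alternative chosen after seeing the data), and under the conditions of the cell names, which take cKO uninjured replicate 2 and cKO 14 d replicate 2 out of their groups.

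Injury of the spinal cord is known to draw microglia and astrocytes into reactive states, to damage myelin and to open the barrier between blood and cord. Microglia near lesions and plaques can take on a damage-associated state, in which genes for lipid uptake, lysosomal breakdown and secreted growth factors are raised and genes of resting surveillance are lowered. Ryk is a receptor for Wnt ligands.

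UMIs were summed per mouse within each of the 17 clusters named by the authors, and a mouse entered a cluster with at least 10 cells. Clusters 1 to 11 were tested with edgeR's quasi-likelihood test and Benjamini-Hochberg adjustment over the genes that passed its filter on low counts; a gene with an adjusted p under 0.05 is said to have risen or fallen, or to be called. A gene can pass the filter through the mice of 1 group alone, so that it could be called only as higher in that group. This is stated below for some genes and not for all. Levels in a cluster are CPM of the mouse's UMIs in that cluster after TMM scaling, and summed markers are CPM without it. In Clusters 2, 5, 6, 8, 10 and 11, cKO uninjured replicate 1 had under 10 cells, so their 3 uninjured values are WT replicate 1, WT replicate 2 and cKO replicate 2. By chance alone, groups of 4 and 4 mice lie apart on a given side in 1 of 70 arrangements, and groups of 3 and 4 mice do so more often. Shares of genes apart are therefore not comparable between those clusters and the others. Over the 11 clusters edgeR made 79 calls, and DESeq2 made 319. The total was 1008 without WT uninjured replicate 1, 6 without WT uninjured replicate 2, 120 (in 5 clusters) without cKO uninjured replicate 1, 8 without cKO uninjured replicate 2, 183 without WT 14 d replicate 1, 25 without WT 14 d replicate 2, 17 without cKO 14 d replicate 1 and 8 without cKO 14 d replicate 2. It was 2891 against the uninjured replicates 2 alone, 1447 against the replicates 1 alone and 3 under the conditions of the cell names. Where 1 uninjured mouse remained in a cluster, it is assumed to vary like the others.

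Ryk itself (ENSMUSG00000032547.12, chr9:102834917-102908305) was not called in any of the 9 clusters where it passed the filter. In Cluster 7, an astrocyte cluster, it stood at 142, 173, 86.1 and 235 uninjured and at 180, 156, 187 and 170 at 14 d, so the groups overlapped (log2 difference 0.07). In pericytes (Cluster 9) the values were 155, 134, 140 and 142 against 97.7, 218, 247 and 197. The log2 difference lay between -0.27 in Cluster 5 and 0.40 in Cluster 9, with overlapping groups in each. Tags from the 3′ end can lie outside the deleted part of the gene, so these values check nothing about the deletion.

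Endothelial cells made up a smaller share and microglia of Cluster 10 a larger share of the cells at 14 d. Cluster 1 held 30.4%, 24.2%, 22.1% and 27.8% of cells uninjured and 20.7%, 16.4%, 15.9% and 17.7% at 14 d, and Cluster 10 held 1.33%, 2.02%, 0% and 1.29% against 6.9%, 5.13%, 6.52% and 5.69%. In both clusters all 4 mice of each group lay apart. Cluster 1 differed by -8.47 percentage points (26.1 ± 3.69 against 17.7 ± 2.17, SD, n = 4) and Cluster 10 by 4.9 points (1.16 ± 0.844 against 6.06 ± 0.8, SD, n = 4). The exact two-sided permutation test gave p = 0.0286 for each, the smallest that its 70 arrangements allow, and an adjusted p of 0.243 over 17 clusters. Among the cells of the microglial Clusters 6 and 10 together, Cluster 10 took 14.1%, 41.8%, 0% (0 of 6 cells) and 42.1% uninjured, and 44%, 54.5%, 57.4% and 62.5% at 14 d. Neurons (Cluster 3) made up 8.98%, 9.18%, 29.8% and 9.45% uninjured and 14%, 24.4%, 26.2% and 23.5% at 14 d, with overlap through cKO uninjured replicate 1. Shares sum to a whole and the clusters were drawn from the same genes, so a gain in 1 cluster cannot be told apart from losses in others.

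**Figure D1:**
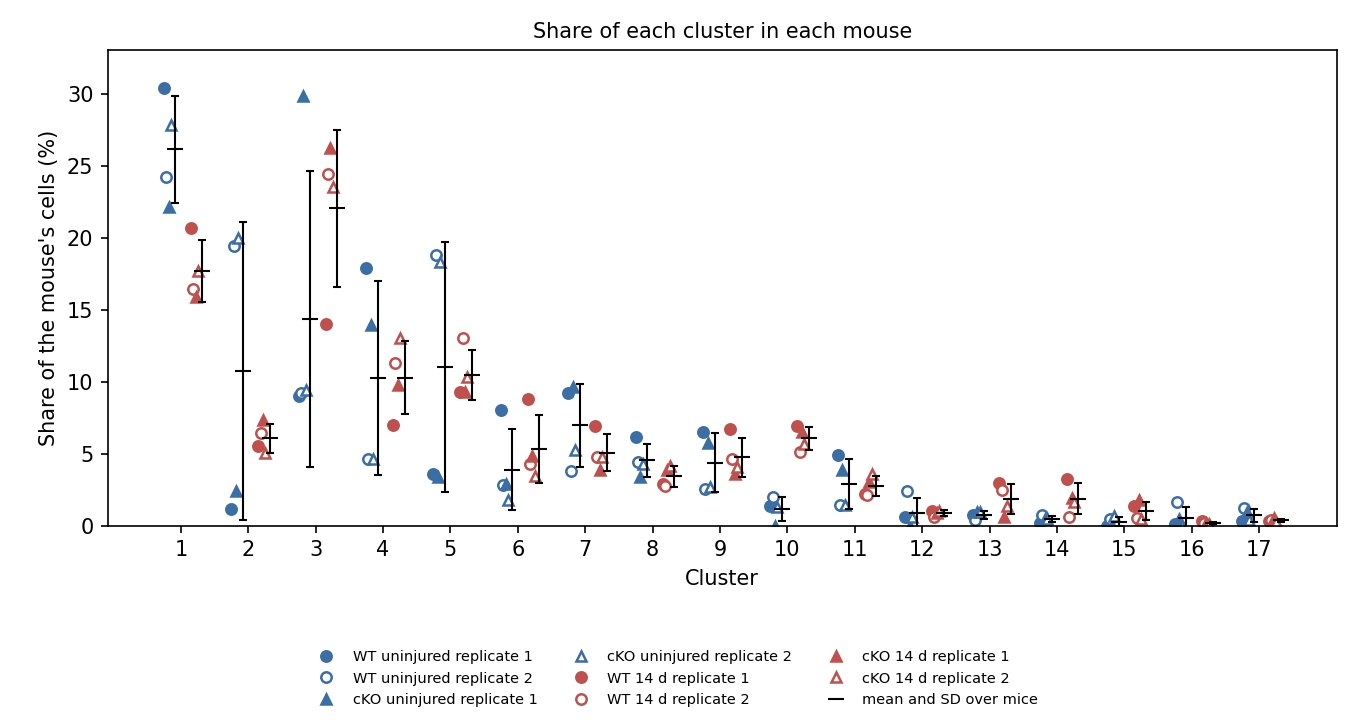
Share of each mouse's cells in each cluster, in percent, with 1 point per mouse and the mean and SD over 4 mice beside each group. The 14 d mice lie below all uninjured mice in Cluster 1 (15.9% to 20.7% against 22.1% to 30.4%) and above them in Cluster 10 (5.13% to 6.9% against 0% to 2.02%).

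In microglia of Cluster 10, several genes of the damage-associated state rose at 14 d, most of them from at or near 0 UMIs in the uninjured mice. Gpnmb, Cst7, Spp1, Igf1, Fabp5, Fn1 and Abcg1 rose, and the chemokine gene Ccl12 and mitochondrially encoded mt-Atp8 and mt-Rnr2 fell. Gpnmb, Cst7, Fn1 and Abcg1 had no UMI in the uninjured mice and passed the filter through the 14 d mice alone. Levels of the homeostatic genes P2ry12 and Selplg were lower in every 14 d mouse without passing the test. Of 5567 genes tested, 18 were called (0.323%), 12 of them higher (0.216%) and 6 lower (0.108%). The groups did not overlap in 1023 genes on the higher side (18.4%) and 197 on the lower side (3.54%), and the median log2 difference of all genes was 0.38 (0.29 to 0.30 under the other scalings). The 3 uninjured mice had 13, 28 and 16 cells with 23562 to 27330 UMIs per mouse, against 67 to 85 cells with 338283 to 978701 UMIs at 14 d. Median UMIs per cell were 933, 638 and 807.5 against 5148.5, 5554, 13048 and 2186, and the part of this depth difference in the results was not tested.

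Gpnmb, for a glycoprotein of phagocytic myeloid cells (ENSMUSG00000029816.10, chr6:49036546-49070929), had 0, 0 and 0 CPM uninjured and 341, 559, 963 and 445 at 14 d. Cst7, for cystatin F, an inhibitor of lysosomal cathepsins (ENSMUSG00000068129.5, chr2:150570415-150578944), had 0, 0 and 0 against 384, 469, 451 and 316. Neither had any UMI in the uninjured mice, and every 14 d mouse had at least 79 of Gpnmb and 89 of Cst7. Against a floor of 3 counts over the uninjured group, Gpnmb was at least 16.6-fold and Cst7 at least 10.4-fold higher (adjusted p = 0.00202 for both, higher in 4 of 4 mice). Both entered the test through the 14 d mice alone, so only a rise could be called for them. Spp1, for the secreted protein osteopontin (ENSMUSG00000029304.14, chr5:104435118-104441050), stood at 34, 0 and 446 and at 3510, 2620, 4600 and 2130. No uninjured mouse came near the lowest 14 d mouse, and the means were 160 ± 248 (SD, n = 3) and 3210 ± 1090 (SD, n = 4) (log2 difference 4.40 ± 0.69, SE; adjusted p = 0.00202). Igf1, an insulin-like growth factor gene (ENSMUSG00000020053.18, chr10:87858265-87937042), stood at 0, 0 and 89.1 against 522, 474, 443 and 372, from 2 UMIs in the uninjured group, and lay 16.6 times as high, 4.57 to 137 by counting error (adjusted p = 0.0153). Cst7 passed in each of the 7 fits that left out 1 mouse, with an adjusted p up to 0.0431, while Gpnmb and Spp1 passed in 6, each with 0.0593 without WT uninjured replicate 2. Igf1 missed the threshold without that mouse (0.144), WT 14 d replicate 2 (0.0563), cKO 14 d replicate 1 (0.0979) or cKO 14 d replicate 2 (0.063). Over these fits the log2 difference ran from 4.03 to 7.61 for Spp1 and from 3.60 to 10.64 for Igf1. Of the uninjured UMIs, cKO uninjured replicate 2 held 10 of 11 for Spp1 and 2 of 2 for Igf1. Under the conditions of the cell names Spp1 passed (0.0158), and Cst7, Igf1 and Gpnmb did not (0.064, 0.064 and 0.0905). Against WT uninjured replicate 1 alone none passed (0.311 for Spp1, Cst7 and Igf1, and 0.432 for Gpnmb).

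Several lipid genes lay higher too. Fabp5, for a carrier of fatty acids (ENSMUSG00000027533.10, chr3:10012548-10016607), stood at 0, 87.3 and 134 uninjured and 2410, 670, 891 and 333 at 14 d. Abcg1, for an exporter of cholesterol (ENSMUSG00000024030.7, chr17:31057675-31117988), stood at 0, 0 and 0 against 155, 178, 162 and 206, and was at least 4.39-fold higher. For Fabp5 and Abcg1 the groups lay apart, with adjusted p of 0.0259 and 0.0288. Abcg1 passed the filter through the 14 d mice alone, so only a rise could be called for it. Fabp5, at 0 in 1 uninjured mouse, passed it only with the 14 d mice. Of the 12 genes of lipid efflux and storage, 10 passed the filter, 9 lay higher in every 14 d mouse and 2 were called, and their median log2 difference was 2.37 (2.22 with Abcg1 set to its bound) beside 0.38 over all genes. Apoe, for the apolipoprotein that carries lipids between cells (ENSMUSG00000002985.16, chr7:19696109-19699188), was abundant throughout, at 7280, 13500 and 20700 against 117000, 48900, 36000 and 38200. WT 14 d replicate 1 was far above the rest, the groups lay apart, and the adjusted p was 0.106, or 0.0075 without that mouse. Abca1, for the partner exporter of Abcg1 (ENSMUSG00000015243.4, chr4:53030787-53159895), gave 204, 43.6 and 0 against 418, 570, 578 and 512 (adjusted p = 0.0594, 0.0116 without WT 14 d replicate 1, 0.00623 without WT uninjured replicate 1 and 0.0351 with the replicate number as a block). Apoc1 gave 102, 0 and 0 against 2700, 184, 152 and 350, again highest in WT 14 d replicate 1 (adjusted p = 0.122, 0.021 with the block). Fn1, for the matrix protein fibronectin (ENSMUSG00000026193.15, chr1:71585520-71653200), was at 0, 0 and 0 against 207, 577, 423 and 167, at least 9.76-fold higher (adjusted p = 0.0259). Like Abcg1, Fn1 passed the filter through the 14 d mice alone. Fabp5 and Fn1 missed the threshold without WT uninjured replicate 1 (0.0715 and 0.0586), WT uninjured replicate 2 (0.24 and 0.205), cKO uninjured replicate 2 (0.153 for both), WT 14 d replicate 2 (0.0617 and 0.0659) or cKO 14 d replicate 1 (0.117 for both). Abcg1 missed it without WT uninjured replicate 2 (0.157), cKO uninjured replicate 2 (0.13), WT 14 d replicate 2 (0.102), cKO 14 d replicate 1 (0.117) or cKO 14 d replicate 2 (0.147). DESeq2 gave Abcg1 no adjusted p.

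All 25 genes of the damage-associated list passed the filter, 17 lay higher in every 14 d mouse and 5 of those were called. The median of the list was 1.74 beside 0.38. Gpnmb and Cst7, like Abcg1 and Fn1, passed through the 14 d mice alone, and Spp1, Igf1, Fabp5 and Lpl passed only with them. Lpl, for lipoprotein lipase (ENSMUSG00000015568.16, chr8:68880491-68907448), stood at 0, 0 and 802 against 958, 695, 1700 and 1290 and overlapped through cKO uninjured replicate 2, without which its adjusted p of 0.216 became 0.0111. Among 20 of 21 lysosomal genes that passed, 13 lay higher and 2 lower, none was called, and the median was 0.88. The protease genes Ctsb (ENSMUSG00000021939.8, chr14:63122462-63145923) and Ctsd (ENSMUSG00000007891.16, chr7:142375911-142388038) illustrate it, with 1530, 1570 and 1740 against 5570, 5310, 6490 and 4910 and 3400, 3800 and 5040 against 15400, 12600, 15500 and 11700. Both lay apart with little spread within the groups, at adjusted p of 0.0545 and 0.0797, and 0.00106 and 0.00119 without WT 14 d replicate 1 or 0.0194 and 0.0436 without WT uninjured replicate 1. Ctsa, for cathepsin A, gave 238, 306 and 223 against 1090, 728, 852 and 661 (adjusted p = 0.0808, 0.0229 without WT 14 d replicate 1), while Ctsh, for cathepsin H, gave 613, 698 and 668 against 811, 762, 696 and 651, with overlap.

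The homeostatic list of 16 microglial genes had a median of -0.43, with 4 genes lower and 1 higher in every 14 d mouse, and none called. P2ry12, a receptor for ADP (ENSMUSG00000036353.13, chr3:59216272-59262871), stood at 749, 917 and 312 against 198, 177, 277 and 303, so that cKO uninjured replicate 2 lay just above the highest 14 d mouse (adjusted p = 0.101). Selplg, for a ligand of selectins (ENSMUSG00000048163.13, chr5:113818536-113832644), stood at 1460, 917 and 802 against 298, 456, 447 and 418 with no overlap (adjusted p = 0.0825, 0.0368 without WT 14 d replicate 1). Tmem119 gave 681, 524 and 178 against 186, 71.2, 142 and 149, with overlap by 1 mouse (adjusted p = 0.0797, 0.0279 without WT 14 d replicate 1 and 0.0349 with the block). The fractalkine receptor gene Cx3cr1 gave 3610, 829 and 758 against 2100, 2170, 2440 and 2180, with overlap, and its adjusted p of 0.8 became 0.0435 without WT uninjured replicate 1. The summed level of 10 microglial markers was 43700, 24800 and 25000 CPM uninjured and 26400, 22000, 21600 and 22300 at 14 d, with C1qa the most abundant. All 10 markers of macrophages and antigen-presenting cells were detected, Lyz2 most, at a summed 739, 2630 and 976 against 5520, 2610, 3500 and 4100, which overlap. Markers of oligodendrocyte precursors, led by Cspg4, lay apart, at 0, 73.2 and 42.4 against 121, 103, 88.9 and 107. Those of lymphocytes and of ependymal cells were also higher in every 14 d mouse, from 0 in the uninjured mice. The part of these markers in the results was not tested.

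**Figure D2:**
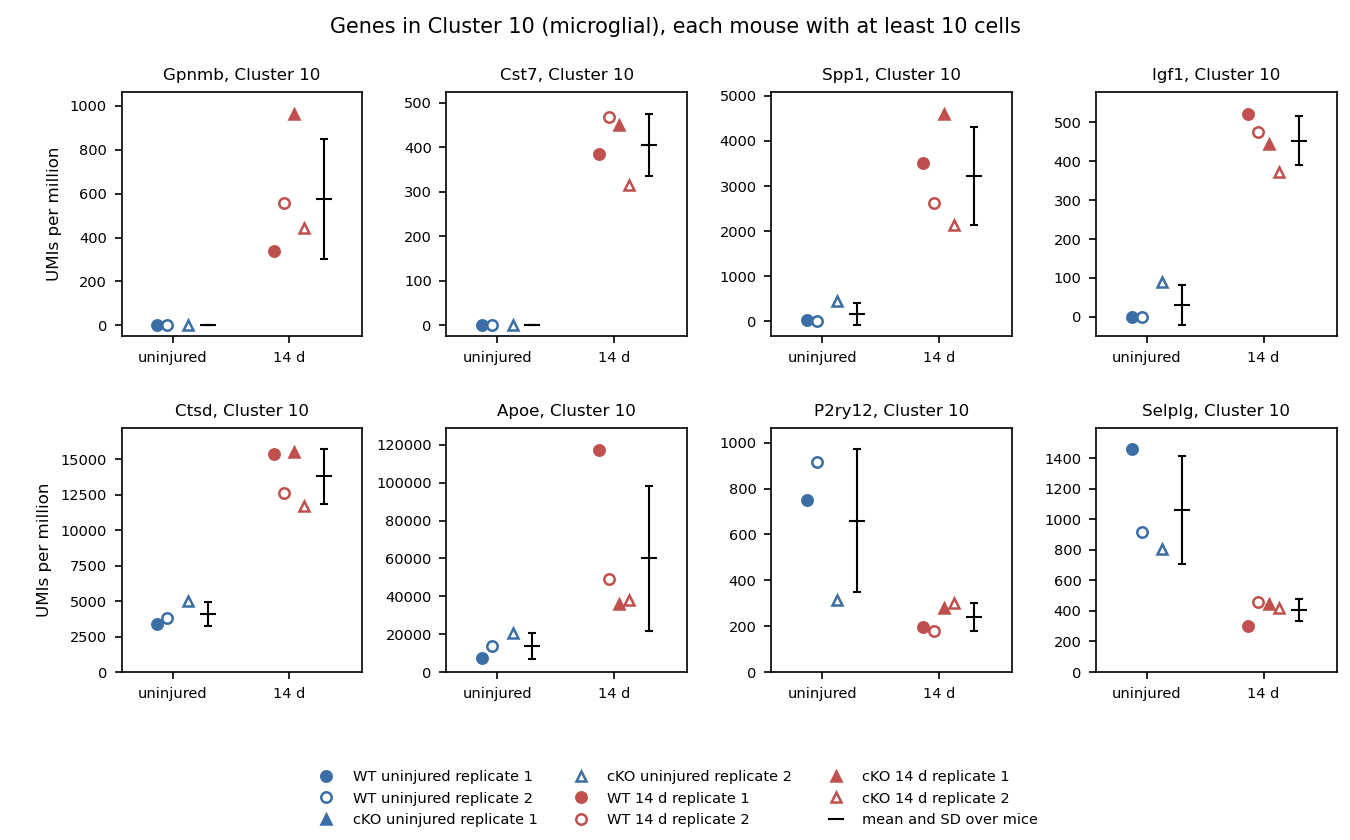
Levels of 8 genes in Cluster 10, in CPM after TMM scaling on linear axes, with 1 point per mouse and the mean and SD over mice beside each group. Gpnmb and Cst7 are at 0 in the 3 uninjured mice and between 316 and 963 at 14 d, Spp1, Igf1, Ctsd and Apoe lie higher, and P2ry12 and Selplg lower, in every 14 d mouse.

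Of the falls in Cluster 10, Ccl12 (ENSMUSG00000035352.3, chr11:82101845-82103400) stood at 34, 175 and 980 uninjured and 43.1, 16.5, 27 and 47.3 at 14 d, so WT uninjured replicate 1 lay among the 14 d mice. Its call (adjusted p = 0.0177) was lost without WT uninjured replicate 2 (0.144) or cKO uninjured replicate 2 (0.483). The gene of a subunit of ATP synthase, mt-Atp8 (ENSMUSG00000064356.3, chrM:7766-7969), stood at 953, 2490 and 2270 against 703, 470, 397 and 379, and the mitochondrial ribosomal RNA mt-Rnr2 (ENSMUSG00000064339.1, chrM:1094-2675) at 13300, 36100 and 33600 against 8030, 6370, 5380 and 6170. Both lay apart (adjusted p = 0.0259 and 0.0473), with the uninjured replicates 2 highest, and mt-Rnr2 missed the threshold with the block (0.0984). Over 13 mitochondrially encoded protein genes the median was -0.76, with 5 lower in every 14 d mouse. Gphn followed the pattern of the libraries, at 204, 7940 and 4190 against 738, 568, 561 and 538 (adjusted p = 0.0369, 0.18 with the block). These 3 genes missed the threshold without WT uninjured replicate 2 (mt-Atp8 0.306, mt-Rnr2 0.324, Gphn 0.408), cKO uninjured replicate 2 (0.207, 0.26 and 0.228), WT 14 d replicate 2 (0.0659, 0.107 and 0.111), cKO 14 d replicate 1 (0.117, 0.137 and 0.137) or cKO 14 d replicate 2 (0.147, 0.147 and 0.149).

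The other called genes of Cluster 10 were chosen after their values were seen. Pld3, for a lysosomal nuclease (ENSMUSG00000003363.15, chr7:27532000-27553218), stood at 68.1, 43.6 and 89.1 against 677, 395, 532 and 445, and Mitf, for a transcription factor of lysosomal and pigment genes (ENSMUSG00000035158.15, chr6:97807052-98021349), at 136, 0 and 44.6 against 483, 508, 512 and 499. Ctnnb1, for beta-catenin (ENSMUSG00000006932.17, chr9:120929216-120960507), stood at 34, 43.6 and 44.6 against 254, 283, 352 and 255, and the ribosomal protein gene Rpl23a at 204, 306 and 134 against 673, 1020, 1040 and 979. Each lay apart with adjusted p from 0.0197 to 0.0498, from 3 to 16 UMIs in the uninjured group. Each of the 4 missed the threshold without WT uninjured replicate 2 (adjusted p 0.144 to 0.205), cKO uninjured replicate 2 (0.0743 to 0.153), WT 14 d replicate 2 (0.0501 to 0.116), cKO 14 d replicate 1 (0.117 to 0.137) or cKO 14 d replicate 2 (0.0699 to 0.147), and Ctnnb1 also without WT uninjured replicate 1 (0.0586), with median-of-ratios scaling (0.061) and with total counts (0.0747). The count of 18 became 49 without WT uninjured replicate 1, 2 without WT uninjured replicate 2, 7 without cKO uninjured replicate 2, 64 without WT 14 d replicate 1, and 5, 4 and 6 without WT 14 d replicate 2 and cKO 14 d replicates 1 and 2. It was 83 with DESeq2 (with Apoe, P2ry12, Selplg, Tmem119, Abca1, Apoc1, Ctsa, Ctsb and Ctsd among them, at adjusted p up to 0.0373), 35 with the replicate block, 61 with genotype as a term, 39 with all mice of the series in the fit (where Fabp5, mt-Atp8 and Gphn missed the threshold, at 0.0501, 0.0619 and 0.0868), 1 under the conditions of the cell names and 0 against WT uninjured replicate 1 alone.

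In the other microglial cluster, Cluster 6, some lipid and damage-associated genes lay higher in every 14 d mouse without passing the test. Apoe, the cholesterol exporter genes Abca1 and Abcg1, and Ccl3 were among them, while homeostatic genes lay on both sides. Only Gm26870 (ENSMUSG00000097312.1, chr9:3000282-3038313), named after its values were seen, was called of 6161 genes (0.0162%), at 13.9, 11.02 and 0 against 1450, 383, 412 and 250 (adjusted p = 0.0326). Gm26870 passed the filter through the 14 d mice alone, so only a rise could be called for it. DESeq2 called 16 genes and 459 had an unadjusted p under 0.05. The groups lay apart in 362 genes on the higher side (5.88%) and 266 on the lower (4.32%). The count was 10 without WT uninjured replicate 1, 19 without WT 14 d replicate 1, 2 without WT 14 d replicate 2, and 0 without WT or cKO uninjured replicate 2, under the conditions of the cell names or against WT uninjured replicate 1 alone.

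Apoe in Cluster 6 stood at 584, 2120 and 2120 uninjured and 34200, 8010, 9860 and 6240 at 14 d, and Abca1 at 116, 88.2 and 121 against 249, 339, 272 and 289. Both lay apart, again with WT 14 d replicate 1 far above the rest for Apoe, at adjusted p of 0.179 each; with DESeq2 it was 0.00937 and 0.00458, and without that mouse 0.0102 and 0.0242. Abcg1 gave 18.5, 22 and 0 against 132, 70.7, 54.5 and 82.1, from 6 uninjured UMIs, and the chemokine gene Ccl3 (ENSMUSG00000000982.5, chr11:83647844-83649355) gave 23.2, 11 and 17.3 against 90, 76.3, 67.3 and 136 (adjusted p = 0.277 and 0.205). Spp1 had no UMI uninjured and 132, 43.8, 12.8 and 30.8 at 14 d, at least 5.3-fold higher, a level far under that of Cluster 10, and Lpl gave 0, 33.1 and 0 against 48.4, 21.2, 72.1 and 109 with overlap. Of the damage-associated list, 20 of 25 passed, 11 lay higher and 1 lower, with a median of 1.27 beside 0.03, and 8 of 12 lipid efflux genes passed with 4 higher and a median of 1.28. Among 11 of 28 interferon genes that passed, 4 lay higher (median 0.41), including Isg15, a ubiquitin-like interferon target, at 0, 0 and 0 against 38.1, 41, 32 and 14.4 and at least 3.86-fold higher (adjusted p = 0.294). Spp1, Isg15, Abcg1, Ccl3 and Lpl passed the filter through the 14 d mice alone.

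P2ry12 in Cluster 6 stood at 2070, 2010 and 2570 against 889, 1520, 1670 and 1480, and Selplg at 2090, 2030 and 2190 against 1200, 1540, 1540 and 1620. Both lay lower in every 14 d mouse (adjusted p = 0.623 and 0.711), whereas Cx3cr1, at 4390, 4100 and 4180 against 4910, 4730, 5230 and 4480, lay higher (adjusted p = 0.923). Tmem119 overlapped, at 1120, 959 and 829 against 848, 833, 731 and 788. The homeostatic list had a median of -0.37 with 5 of 16 genes lower and 2 higher. The summed markers of macrophages and antigen-presenting cells, all 10 detected with Lyz2 most abundant, were 302, 378 and 189 against 1190, 561, 786 and 720, and lay apart. Those of oligodendrocytes, led by Mbp, were 1990, 2510 and 2230 against 1140, 1330, 1240 and 1070, and those of neurons, led by Nefm, 168, 142 and 126 against 249, 256, 316 and 400, with all 10 detected in each. Their part in the values above was not tested.

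In the astrocyte Cluster 7, Cldn10, Mfsd2a and Btbd17 fell, while transporter and water channel genes of resting astrocytes overlapped between the groups. These were the 3 called genes of 4435 (0.0676%), whereas the groups lay apart in 126 genes on the higher side (2.84%) and 115 on the lower (2.59%). Cldn10, for a claudin of cell contacts (ENSMUSG00000022132.15, chr14:118787908-118875489), stood at 730, 791, 545 and 672 uninjured and 308, 316, 367 and 301 at 14 d. Mfsd2a, for a transporter of lysophospholipids (ENSMUSG00000028655.11, chr4:122946850-122961188), stood at 414, 400, 359 and 404 against 196, 150, 196 and 140, and Btbd17 (ENSMUSG00000000202.9, chr11:114791217-114795945) at 339, 427, 531 and 424 against 218, 144, 183 and 144. For each, all 4 uninjured mice of both genotypes lay above all 4 at 14 d. Means were 684 ± 105 (SD, n = 4) and 323 ± 29.8 (SD, n = 4) for Cldn10, and log2 differences were -1.09 ± 0.17 (SE), -1.24 ± 0.19 and -1.32 ± 0.21, each with an adjusted p of 0.0131. The 3 genes missed the threshold without WT uninjured replicate 2 (adjusted p 0.0975 to 0.125), cKO uninjured replicate 2 (0.0611), WT 14 d replicate 2 (0.0504) or cKO 14 d replicate 2 (0.138), and Btbd17 also without cKO uninjured replicate 1 (0.0806). Their highest adjusted p was 0.363 under the conditions of the cell names and 0.108 against the uninjured replicates 1 alone. The count was 13 without WT uninjured replicate 1, 0 without WT uninjured replicate 2, 2 and 1 without cKO uninjured replicates 1 and 2, 12 without WT 14 d replicate 1 and 0 without cKO 14 d replicate 2, against 16 with DESeq2.

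Of the 21 homeostatic astrocyte genes, all passed, 1 lay lower and the median was -0.05, which became 0.02 with total counts. The glutamate transporter gene Slc1a2 stood at 7180, 6830, 6440 and 5950 against 6830, 6950, 7300 and 8490 and Slc1a3 at 675, 364, 430 and 496 against 928, 534, 425 and 719. Glutamine synthetase (Glul) stood at 738, 536, 545 and 561 against 515, 580, 608 and 767 and the water channel gene Aqp4 at 1500, 1500, 846 and 1490 against 1050, 1240, 1340 and 1700. All 4 overlapped. Gfap, the intermediate filament gene of reactive astrocytes (ENSMUSG00000020932.14, chr11:102887336-102900912), stood at 158, 273, 330 and 248 against 934, 403, 312 and 446, with cKO 14 d replicate 1 inside the uninjured range (adjusted p = 0.234). Of the 29 genes of reactive astrocytes 2 passed, with a median of 0.9 beside 0, neither apart nor called. Summed astrocyte markers, led by Slc1a2, were 14200, 13800, 14200 and 12300 against 14100, 13200, 14700 and 16400.

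Cluster 5, also annotated as astrocytes, showed higher levels of some genes of reactive astrocytes, with no call by edgeR. Gfap (ENSMUSG00000020932.14, chr11:102887336-102900912) stood at 556, 874 and 880 uninjured and 1850, 1680, 1090 and 1340 at 14 d, Vim, for vimentin (ENSMUSG00000026728.9, chr2:13573927-13582826), at 0, 16.4 and 28.4 against 531, 220, 101 and 71, and Serpina3n, for a protease inhibitor (ENSMUSG00000021091.8, chr12:104406729-104414329), at 30, 4.1 and 18.9 against 142, 54.5, 73 and 58.6. Complement C3 (ENSMUSG00000024164.15, chr17:57203970-57228136) stood at 0, 4.1 and 4.73 against 383, 34.9, 56.2 and 55.5. In each gene the groups lay apart and WT 14 d replicate 1 was highest. Of the 29 genes of the list, 9 passed and 5 lay higher (the fifth was Lgals1), with a median of 1.24 beside -0.02. No gene of 4983 was called by edgeR (0%), against 293 with an unadjusted p under 0.05 and 3 called by DESeq2 or 2 with the replicate block; the groups lay apart in 264 genes higher (5.3%) and 143 lower (2.87%). Adjusted p was 0.819 for Gfap, 0.689 for Vim, 0.813 for Serpina3n and 0.813 for C3. Without WT uninjured replicate 1, 115 genes were called, with 0.00252 for Vim, 0.00788 for Serpina3n and 0.0153 for C3, and against that mouse alone 1197 were called. The summed neuronal markers, all 10 detected with Nefl most abundant, were 771, 1830 and 1860 against 2550, 3770, 3570 and 3820, and those of astrocytes 19800, 15200 and 14400 against 22400, 22000, 21200 and 20400. Both lay apart, and their part in the results was not tested.

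Cluster 2, the third cluster annotated as astrocytes, was poor in UMIs, and its called genes were of several kinds. The 13 mitochondrially encoded genes had a median of -0.12 beside 0.03 (0.14 with total counts and 0.23 with DESeq2) with 1 called, and 79 of 88 ribosomal protein genes had -0.42 (0.36 with total counts) with 2 called. Of 1576 genes tested, 25 were called (1.59%), 8 higher (0.508%) and 17 lower (1.08%), and the groups lay apart in 154 higher (9.77%) and 48 lower (3.05%). Kcnc1, for a neuronal potassium channel (ENSMUSG00000058975.7, chr7:46396497-46438704), stood at 0, 40.7 and 44.3 against 159, 191, 165 and 262, and Cyfip2, for a regulator of actin (ENSMUSG00000020340.16, chr11:46193850-46312859), at 128, 130 and 133 against 429, 431, 330 and 467 (adjusted p = 0.0173 each). Both lay apart, as did the motor and microtubule genes Myo5a (128, 187 and 124 against 366, 439, 413 and 592), Kifap3 (128, 81.3 and 53.2 against 238, 199, 206 and 228) and Map7d2 (128, 138 and 186 against 350, 343, 495 and 513), and Rnf227 (0, 114 and 97.5 against 318, 287, 248 and 262). WT uninjured replicate 1 contributed 11 cells and 8218 UMIs, so that its value of 128 stands for 1 UMI. Among the falls, Cystm1 (ENSMUSG00000046727.13, chr18:36342520-36403097) stood at 128, 211 and 284 against 15.9, 71.8, 96.3 and 68.4, Rnf7 at 384, 325 and 505 against 111, 104, 275 and 160 and the insulin receptor adaptor gene Grb14 at 128, 195 and 328 against 127, 87.8, 82.6 and 34.2, apart in each. The myelin gene Mal (128, 358 and 523 against 223, 95.7, 124 and 91.1), mt-Co2 (128, 561 and 426 against 47.7, 199, 275 and 45.6), Rpl15 (0, 740 and 567 against 159, 199, 330 and 91.1) and Rpl36al (128, 358 and 461 against 127, 199, 138 and 102) overlapped, and their directions and that of Grb14 turned against WT uninjured replicate 1 alone.

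Each of the 13 called genes named for Cluster 2 missed the threshold without at least 3 of its 7 mice, with adjusted p up to 0.563. The count of 25 became 219 without WT uninjured replicate 1, 0 without WT uninjured replicate 2 or cKO uninjured replicate 2, 75 without WT 14 d replicate 1, and 3, 8 and 1 without WT 14 d replicate 2 and cKO 14 d replicates 1 and 2. It was 2 with DESeq2, 7 with the replicate block (of the named genes Kcnc1, Cyfip2, Myo5a and Mal passed), 738 with total counts, 3 with genotype as a term, 8 with all mice of the series in the fit, 219 with at least 30 cells per mouse, 123 against WT uninjured replicate 1 alone and 0 under the conditions of the cell names. With DESeq2 none of the 13 genes passed (adjusted p 0.481 to 0.999), and with genotype as a term Kcnc1 alone did. With total counts all 7 named falls missed the threshold, with adjusted p from 0.0698 for Mal to 0.278 for Rnf7, whose log2 difference was then -0.49. Total counts moved the median of all genes by 0.91 on the log2 scale in this cluster, and by 0.26, 0.16, 0.51, 0.44 and 0.17 in Clusters 1, 4, 5, 8 and 11, so differences there are relative to the median gene. The summed neuronal markers, all 10 detected and led by Nefl, were 3040, 1700 and 1680 against 3620, 4270, 4960 and 5870, and those of astrocytes, led by Slc1a2, 10600, 9390 and 8010 against 13500, 12500, 11800 and 10800, and both lay apart. Pooled over mice, oligodendrocyte markers had the highest sum of any list there, at 11700, 25900 and 35900 against 12600, 12300, 20800 and 16500. In WT 14 d replicates 1 and 2 the astrocyte sum was the higher one. Endothelial markers were at 8640, 322 and 288 against 1060, 446, 538 and 320. All 10 oligodendrocyte and all 10 endothelial markers were detected, with WT uninjured replicate 1 apart from the other uninjured mice. The part of these markers in the calls was not tested. Median mitochondrial UMIs were 20.3%, 13.6% and 13.2% uninjured and 12.3%, 15.2%, 14.9% and 11.4% at 14 d.

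Oligodendrocytes showed 2 genes of a disease-associated state, Serpina3n and complement C4b, higher in every 14 d mouse of both clusters, while the levels of the myelin genes given overlapped. In Cluster 4, Serpina3n (ENSMUSG00000021091.8, chr12:104406729-104414329) stood at 9.05, 25.2, 11.9 and 0 uninjured and 304, 86.1, 97.2 and 94.6 at 14 d, and C4b (ENSMUSG00000073418.4, chr17:34728380-34743882) at 27.2, 25.2, 107 and 17.6 against 381, 178, 191 and 260. In Cluster 8 they stood at 60.7, 24.2 and 0 against 883, 648, 394 and 414 and at 94.9, 0 and 34.6 against 815, 522, 467 and 617. Every 14 d mouse lay above every uninjured mouse, and WT 14 d replicate 1 was highest in each. The log2 differences were 3.59 ± 0.66 (SE) and 2.59 ± 0.49 in Cluster 4 and 3.82 ± 0.70 and 3.37 ± 0.70 in Cluster 8, with adjusted p of 0.194 and 0.362 for both genes. Without cKO uninjured replicate 1, C4b in Cluster 4 had 0.0368, and without WT uninjured replicate 1, Serpina3n and C4b in Cluster 8 had 0.00167 and 0.000905. With the replicate block Serpina3n in Cluster 4 had 0.0236. Il33, for an alarmin of oligodendrocytes, overlapped in Cluster 4 (946, 277, 394 and 194 against 500, 479, 692 and 687) and in Cluster 8 (19, 72.6 and 0 against 61.2, 98, 14.7 and 94.1), and so did the class I gene H2-D1 (36.2, 25.2, 0 and 88.2 against 23.8, 24.8, 72.9 and 36.3, and 68.3, 24.2 and 0 against 54.4, 65.3, 75.4 and 30.1). In each cluster 12 of 18 genes of the list passed and 2 lay higher, with medians of 0.28 and 0.51 beside 0 and 0.06. With DESeq2 the adjusted p was 0.0147 and 0.00664 in Cluster 4 and 2.28e-05 and 9.55e-05 in Cluster 8. The summed ependymal markers of Cluster 4, all 10 detected and led by Foxj1, were 4.05, 28, 24.9 and 25.5 against 53.1, 52.2, 59.5 and 67.1, higher in every 14 d mouse. Their part in the differences was not tested.

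Neither oligodendrocyte cluster had a call by edgeR. In Cluster 4 the count was 0 of 5463 (0%), with 383 at an unadjusted p under 0.05, 8 by DESeq2 and 6 with the block, and the groups lay apart in 155 genes higher (2.84%) and 82 lower (1.5%). In Cluster 8 it was 0 of 4589 (0%), with 246 and 32 by DESeq2, and 257 genes higher (5.6%) and 82 lower (1.79%). Without WT uninjured replicate 1 the counts were 9 and 313. In Cluster 4 it was 1 without cKO uninjured replicate 1, WT 14 d replicate 1 or WT 14 d replicate 2, and in Cluster 8 it was 1 without WT uninjured replicate 2. The 17 myelin genes had medians of 0.08 and 0.03 (-0.02 with median-of-ratios scaling in Cluster 8). Mag, for a myelin glycoprotein, overlapped, at 3080, 1480, 2210 and 1220 against 2620, 1930, 2180 and 1680 in Cluster 4 and 3400, 1450 and 1870 against 3400, 1890, 2270 and 1880 in Cluster 8. Mbp, for myelin basic protein (ENSMUSG00000041607.17, chr18:82475146-82585637), split the uninjured mice, at 5230, 12800, 5000 and 17100 against 5780, 7580, 7200 and 7200 and 4420, 49200 and 55600 against 5350, 6260, 5580 and 7860, and Mobp did the same, at 2050, 3170, 1110 and 4690 against 2260, 2140, 1920 and 1510 and 2190, 7480 and 9730 against 2950, 2710, 1380 and 1600. Both uninjured replicates 2 were high and the replicates 1 lay among or below the 14 d mice, so Mbp and Mobp in Cluster 8 had adjusted p of 0.676 and 0.811, but 4.4e-05 and 0.00235 without WT uninjured replicate 1, and DESeq2 called Mbp lower there (log2 difference -2.39, adjusted p = 0.0108).

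Cholesterol synthesis genes of Cluster 4 lay lower on balance, with a median of -0.92 over 18 of 23 that passed, 11 of them at an unadjusted p under 0.05, 1 lower in every 14 d mouse and none called. Hmgcs1, for an early enzyme (ENSMUSG00000093930.2, chr13:119690379-119708260), stood at 330, 654, 179 and 935 against 286, 146, 213 and 168. Sqle, for squalene epoxidase, stood at 88.2, 138, 47.7 and 123 against 59.6, 39.4, 52 and 36.3 and Fdft1, for squalene synthase, at 120, 88.1, 191 and 106 against 95.3, 46.7, 109 and 89.4. All 3 overlapped, and the uninjured replicates 2 were the highest mice for Hmgcs1 and Sqle. In Cluster 8 the median was -0.38 over 20 genes, 0.07 with total counts. The list was not lower in oligodendrocytes alone: its median was -1.13 over 9 genes in neurons (Cluster 3), -1.02 with total counts, and -0.99 over 2 genes in Cluster 2, -0.09 with total counts, with none called. Ribosomal protein genes of Cluster 8 had a median of -1.62 (-0.81 with total counts) over 80 of 88 genes, 46 at an unadjusted p under 0.05, yet none lay apart between the groups. The mitochondrially encoded genes had medians of -1.09 in Cluster 4 and -0.93 in Cluster 8 (-0.34 with total counts). Cldn5, an endothelial claudin (ENSMUSG00000041378.2, chr16:18776847-18778262), stood at 90.5, 126, 95.4 and 159 in Cluster 4 against 0, 16.1, 5.2 and 33.7, lower in every 14 d mouse (adjusted p = 0.194, 0.0192 with the block). The summed endothelial markers there, all 10 detected with Bsg most abundant, were 856, 1420, 785 and 1210 against 297, 429, 228 and 681, and their part in this gene's difference was not tested.

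**Figure D3:**
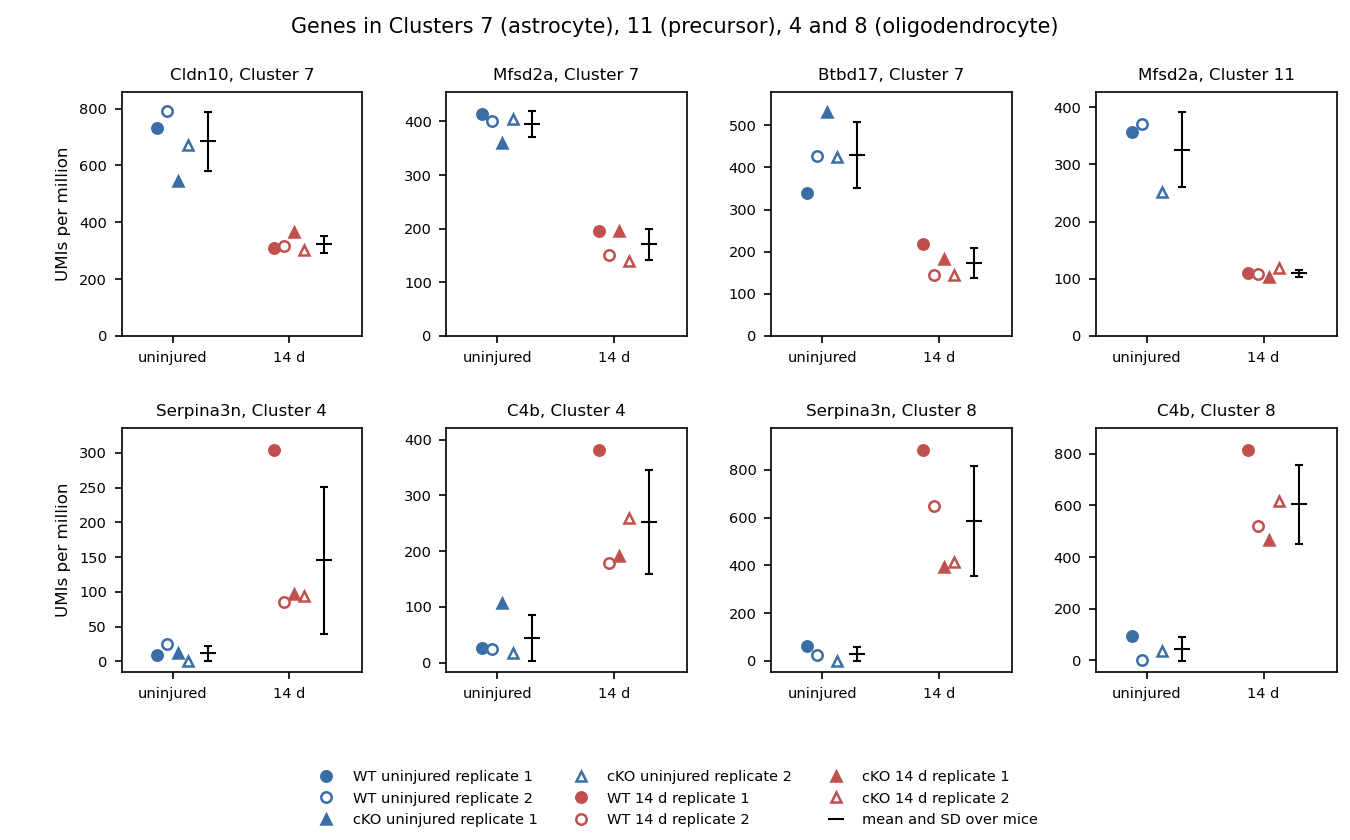
Levels of genes in Clusters 7, 11, 4 and 8, in CPM after TMM scaling on linear axes, with 1 point per mouse and the mean and SD over mice beside each group. Cldn10, Mfsd2a and Btbd17 lie lower, and Serpina3n and C4b higher, in every 14 d mouse than in any uninjured mouse of the cluster.

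Oligodendrocyte precursor cells (Cluster 11) had lower levels of 4 of 10 precursor genes and a higher level of Enpp6 at 14 d, with no call. C1ql1, for a secreted C1q-like protein (ENSMUSG00000045532.5, chr11:102939264-102946688), stood at 602, 884 and 1220 uninjured and 348, 326, 257 and 312 at 14 d, and the transcription factor gene Olig2 (ENSMUSG00000039830.9, chr16:91225457-91228677) at 540, 598 and 628 against 293, 309, 286 and 376. Olig1 gave 1420, 1450 and 1440 against 1080, 698, 1030 and 684. These genes lay lower in every 14 d mouse, at adjusted p of 0.426, 0.7 and 0.754. Pdgfra, for the growth factor receptor of these cells, gave 1820, 1060 and 1040 against 696, 984, 879 and 1100. Cspg4, for the NG2 proteoglycan, gave 856, 1340 and 283 against 586, 566, 494 and 607 and Vcan 4260, 1540 and 1730 against 1830, 2970, 2350 and 1810. The last 3 overlapped. All 10 precursor markers passed, 4 lay lower and the median was -0.54 beside 0.02. Enpp6, a gene of newly formed oligodendrocytes (ENSMUSG00000038173.15, chr8:46986887-47096762), stood at 51, 57 and 31.4 against 403, 189, 555 and 99.6, higher in every 14 d mouse from 8 uninjured UMIs (adjusted p = 0.525). Mfsd2a (ENSMUSG00000028655.11, chr4:122946850-122961188) stood at 357, 370 and 251 against 110, 109, 103 and 118, lower as in Cluster 7 (adjusted p = 0.426), and C4b at 122, 28.5 and 0 against 275, 183, 189 and 140. No gene of 3047 was called by edgeR (0%), with 205 at an unadjusted p under 0.05 and 1 by DESeq2, and 7 without WT uninjured replicate 1. With at least 30 cells per mouse 213 were called, but only 1 WT uninjured and 2 cKO 14 d mice remained, so injury and genotype cannot be told apart there. The summed precursor markers, all 10 detected and led by Lhfpl3, were 14600, 10000 and 9370 against 8600, 12000, 11500 and 9880 and overlapped. The groups lay apart in 133 genes higher (4.36%) and 118 lower (3.87%).

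In neurons (Cluster 3), versican and a chondroitin sulfotransferase rose with a set of mostly long genes, and short genes fell. Of 5642 genes, 32 were called (0.567%), 21 higher (0.372%) and 11 lower (0.195%), and the groups lay apart in 293 higher (5.19%) and 232 lower (4.11%). Vcan, the gene of the proteoglycan versican (ENSMUSG00000021614.16, chr13:89655312-89742509), stood at 20.4, 6.98, 39.1 and 22.2 uninjured and 117, 94.1, 77 and 75.5 at 14 d, and Chst11, which adds sulfate to chondroitin (ENSMUSG00000034612.7, chr10:82985498-83195900), at 66.3, 62.9, 86.1 and 81.3 against 155, 166, 184 and 152. Every 14 d mouse lay above every uninjured mouse for both (adjusted p = 0.0415 each). Of 15 chondroitin sulfate proteoglycan genes, 7 passed, these 2 were called, and the median was 0.38 beside -0.02. Genes with large rises were Cd163l1 (10.2, 21, 5.22 and 14.8 against 49.2, 44.9, 107 and 83.9), Malrd1 (5.1, 14, 5.22 and 22.2 against 45.4, 46.8, 75.7 and 68.6), Hpse2 (10.2, 14, 5.22 and 14.8 against 49.2, 44.9, 67.9 and 68.6), Spag16 (10.2, 34.9, 15.6 and 22.2 against 71.9, 64.7, 181 and 95.3) and Skint5 (10.2, 0, 7.82 and 22.2 against 37.8, 37.2, 54.8 and 54.9). All were low, at 8 to 16 UMIs in the uninjured group, and every 14 d mouse lay above every uninjured mouse. These genes and Vcan passed the filter through the 14 d mice alone, so only a rise could be called for them. By GENCODE, genes called higher spanned a median of 472 kb and 15 of 21 exceeded 100 kb, whereas those called lower spanned 4.28 kb and 0 of 11 did, beside 63 kb and 34.6% over all genes tested. Among genes whose groups lay apart, the share above 100 kb was 64.8% of those higher and 4.42% of those lower in Cluster 7 (30.6% of all tested), 31.2% and 2.95% in Cluster 1 (16.7%) and 30.4% and 1.92% in Cluster 9 (24.1%). In Cluster 10 it was 19.7% and 8.21% (18%). In Clusters 5, 6 and 8 it was 20.2%, 16.3% and 14% of those higher and 13.3%, 6.77% and 11% of those lower, both under the 22.1%, 17.5% and 22.6% of all tested. Span was not used in any rule, and what it stands for was not tested.

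Falls in Cluster 3 included Hoxc8, a gene of segmental identity (ENSMUSG00000001657.7, chr15:102990607-102994111), at 148, 76.8, 104 and 81.3 against 26.5, 30.9, 32.6 and 38.9, and Rabac1, for a Rab binding protein (ENSMUSG00000003380.11, chr7:24969752-24972754), at 117, 147, 96.5 and 155 against 53, 42.5, 50.9 and 38.1. Lamp5, a lysosome-associated membrane protein of neurons (ENSMUSG00000027270.14, chr2:136052239-136069917), stood at 158, 161, 117 and 259 against 60.6, 62.2, 75.7 and 39.6. Groups lay apart for these 3, and also for Dctn3 (61.2, 62.9, 44.3 and 51.8 against 18.9, 12.6, 24.8 and 13), Tmem88b (35.7, 119, 67.8 and 96.1 against 15.1, 25.6, 28.7 and 24.4) and Mllt11 (51, 62.9, 70.4 and 111 against 30.3, 23.6, 32.6 and 17.5), with adjusted p from 0.0353 to 0.0461. Hoxc8, Dctn3, Tmem88b and Mllt11 passed the filter through the uninjured mice alone, so only a fall could be called for them. Each of the 13 called genes named here for Cluster 3 missed the threshold without at least 4 of the 8 mice, with adjusted p up to 0.221. The count of 32 was 39 without WT uninjured replicate 1, 117 without cKO uninjured replicate 1, 11 without WT 14 d replicate 1 or 2, and 0 without WT or cKO uninjured replicate 2 or cKO 14 d replicate 1 or 2. It was 128 with DESeq2, 3 with the replicate block (which none of those 13 genes passed), 7 with median-of-ratios scaling, 49 with total counts, 9 with genotype as a term, 82 with all mice of the series in the fit, 73 against the uninjured replicates 1 alone and 0 under the conditions of the cell names. With genotype as a term Vcan, Chst11, Skint5, Dctn3, Tmem88b, Mllt11 and Lamp5 missed the threshold, with adjusted p from 0.0657 to 0.0847, and with total counts Chst11 did (0.093). With median-of-ratios scaling 9 of the 13 missed it, with adjusted p from 0.0515 to 0.0564, among them Vcan and Chst11 (0.0524 each).

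Synaptic genes of neurons had a median of -0.26 over 21 of 24 that passed, 2 of them lower in every 14 d mouse and none called. Snap25, for a protein of vesicle fusion, stood at 551, 1140, 532 and 1110 against 326, 430, 706 and 332, and the calcium sensor gene Syt1 at 785, 328, 814 and 370 against 541, 468, 478 and 486. Vamp2 stood at 20.4, 62.9, 91.3 and 66.6 against 71.9, 37.6, 69.2 and 34.3. These overlapped, whereas Syp, for a vesicle protein, at 219, 265, 198 and 192 against 132, 137, 140 and 164, lay lower (adjusted p = 0.16). Of 24 genes of axon injury and regeneration, 7 passed, and Atf3 and Sox11 did not. Jun stood at 51, 62.9, 20.9 and 66.6 against 53, 29, 62.7 and 25.2 and Gap43 at 117, 105, 110 and 163 against 114, 70.9, 78.3 and 57.9, both with overlap, and the tubulin gene Tubb3 (ENSMUSG00000062380.4, chr8:123411424-123422015) at 45.9, 168, 86.1 and 111 against 45.4, 16.4, 37.9 and 15.2, lower in every 14 d mouse (adjusted p = 0.0569, 0.0392 without WT uninjured replicate 1 and just under 0.05 without cKO uninjured replicate 1). C4b lay higher, at 5.1, 21, 54.8 and 14.8 against 60.6, 71.4, 95.3 and 78.5 (adjusted p = 0.121, 0.0363 without cKO uninjured replicate 1). The summed neuronal markers, led by Meg3, were 16600, 7320, 21900 and 4520 against 13600, 11200, 6770 and 12300 and overlapped. Those of oligodendrocytes, led by Mbp, were 7210, 12200, 7730 and 13200 against 5890, 6600, 7800 and 6400. They overlapped and exceeded the neuronal sum in both uninjured replicates 2 and in cKO 14 d replicate 1. Precursor markers, which include Vcan, were 612, 361, 926 and 418 against 711, 851, 605 and 654. The part of both in the results was not tested. Those of ependymal cells, all 10 detected and led by Dnah11, were 53.9, 34.6, 37.5 and 49.2 against 135, 88.1, 127 and 97.7 and lay apart, and 2 of 20 genes of motile cilia passed, both higher in every 14 d mouse (median 1.04). Their part in the results, which include the cilium gene Spag16, was not tested.

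Endothelial cells (Cluster 1) gave the most UMIs of any cluster, with no call by edgeR. Klf2, a transcription factor of flow sensing (ENSMUSG00000055148.7, chr8:72319033-72321656), stood at 1150, 847, 588 and 999 uninjured and 340, 388, 480 and 345 at 14 d, and the AP-1 gene Jund (ENSMUSG00000071076.6, chr8:70698949-70700616) at 677, 579, 588 and 616 against 340, 368, 288 and 296. Csf1, the growth factor of macrophages and microglia (ENSMUSG00000014599.10, chr3:107741048-107760469), stood at 28.7, 27.7, 37.2 and 32.6 against 95.5, 63.6, 74.9 and 57.8. Each lay apart, with an adjusted p of 0.411. So did the interferon target Bst2, lower at 162, 274, 246 and 231 against 132, 101, 133 and 105 (adjusted p = 0.411), and the Wnt target Axin2, higher at 69.8, 111, 96.7 and 102 against 149, 168, 140 and 140 (adjusted p = 0.441). Of 8892 genes, edgeR called 0 (0%), with 899 at an unadjusted p under 0.05 and 30 by DESeq2, and the groups lay apart in 215 higher (2.42%) and 237 lower (2.67%). The count was 233 without WT uninjured replicate 1, with adjusted p of 0.0339, 0.034 and 0.0147 for Klf2, Jund and Bst2, 2 without WT uninjured replicate 2, 1 without WT 14 d replicate 1 and 1004 against the uninjured replicates 2 alone.

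Of 22 genes of the barrier between blood and cord, 21 passed, 1 lay higher in every 14 d mouse (Axin2) and 1 lower, with a median of 0.02 beside -0.03. The tight junction gene Cldn5 stood at 2740, 4290, 2850 and 4210 against 2940, 2310, 2080 and 2200, Ocln, for occludin, at 368, 227, 171 and 290 against 215, 370, 268 and 307, and Tjp1, for a junction scaffold, at 1560, 894, 1340 and 886 against 1310, 1600, 1360 and 1480. Mfsd2a, which limits transcytosis in these cells, stood at 308, 294, 208 and 335 against 359, 266, 234 and 195. All 4 overlapped, but against the uninjured replicates 2 alone Cldn5 was called lower (log2 difference -0.82, adjusted p = 0.0184) and Tjp1 higher (0.71, 0.0326). The adhesion molecule genes Vcam1 (25.8, 60.9, 52.1 and 82.7 against 111, 44.1, 104 and 17) and Icam1 (62.1, 11.1, 44.6 and 43.5 against 125, 56.2, 91.3 and 63.8) overlapped too, and 17 of 28 genes of endothelial activation passed, with a median of 0.26. The mitochondrially encoded genes had a median of -0.85, with 4 of 13 lower in every 14 d mouse. The summed markers of pericytes and smooth muscle, all 10 detected with Rgs5 most abundant, were 675, 776, 814 and 581 against 914, 1370, 1510 and 1030 and lay apart; their part in the results was not tested.

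Pericytes (Cluster 9) had the fewest genes apart between the groups, 92 higher (1.9%) and 52 lower (1.07%) of 4844. EdgeR called 0 (0%), with 208 at an unadjusted p under 0.05 and 0 by DESeq2; the count was 1 without WT uninjured replicate 1 or 2, 9 against the replicates 1 alone and 18 against the replicates 2 alone. The channel genes Kcnj8 (487, 418, 524 and 221 against 385, 498, 485 and 676) and Abcc9 (1580, 1090, 1290 and 631 against 993, 2070, 1980 and 1720), Vtn (4170, 6080, 7930 and 5740 against 4670, 4230, 3520 and 4480) and Rgs5 (6210, 4200, 3010 and 4120 against 2990, 7320, 7360 and 7350) overlapped. Heyl, a Notch and Bmp target, lay higher, at 119, 149, 140 and 110 against 212, 176, 270 and 207 (adjusted p = 0.983). Matrix and fibrosis genes had a median of 0.05 over 13 of 33 that passed. The summed pericyte markers, all 10 detected, were 14800, 15800, 14000 and 15200 against 19300, 17000, 22000 and 17000, and endothelial markers, led by Bsg, 13900, 11900, 16300 and 12200 against 11700, 10300, 4630 and 10000, with the groups apart in both.

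Clusters 12 to 17 (immune cells, an unnamed cluster, fibroblasts, Schwann cells, myeloid cells and red blood cells) had at most 1 uninjured mouse with 10 cells and were not tested. Fibroblasts made up 0.204%, 0.723%, 0.481% and 0.485% of cells uninjured and 3.25%, 0.613%, 1.94% and 1.67% at 14 d, with overlap through WT 14 d replicate 2 (exact permutation p = 0.0571, adjusted p = 0.324).

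The difference of the 14 d effect between genotypes could be tested in Clusters 1, 3, 4, 7 and 9, with 2 mice per genotype and time. By edgeR's quasi-likelihood test 0 genes were called for it, and the lowest adjusted p was 0.236 (Cluster 7). The unadjusted p was under 0.05 in 211 of 8892, 106 of 5642, 203 of 5463, 218 of 4435 and 155 of 4844 genes. Each is a share under 0.05, no more than chance alone would give. DESeq2 was not run for it. The cell names give the other genotype for WT uninjured replicate 2, cKO uninjured replicate 2 and WT 14 d replicate 2, and the test was not run with them, so its result holds for the genotypes of the sample titles alone.

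Across clusters, Gm26870 was called higher in Clusters 2, 6 and 10 and lay higher in every 14 d mouse in 9 of 11 clusters. Over all cells it stood at 136, 1250, 1480 and 1390 CPM uninjured and 7380, 16500, 15800 and 16300 at 14 d, and Gm10801 (ENSMUSG00000075015.3, chr2:98662237-98664083), called in Cluster 3, at 9.76, 57.1, 50.4 and 67.2 against 271, 864, 865 and 682. WT replicate 1 was lowest in each group for both. C4b lay higher in every 14 d mouse in Clusters 3, 4, 8 and 11. In the other direction, mt-Rnr2 lay lower in 5 of 11 clusters and was called in 1, and over all cells it stood at 18300, 35500, 2810 and 39000 against 10800, 8530, 8540 and 8800, so that cKO uninjured replicate 1 lay below every 14 d mouse. Median mitochondrial UMIs per cell were 4.39%, 5.33%, 1.36% and 6.31% uninjured and 2.01%, 2.09%, 1.89% and 1.97% at 14 d, with the same exception, and their part in the results was not tested.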

How the data were processed

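Single-cell RNA of 8 mice was measured with 10x 3′ libraries after dead cell removal and digestion with actinomycin D. The authors made the UMI counts with Cell Ranger on mm10 and, before the counts were deposited, filtered and clustered the cells with Seurat and Harmony in R 4.1.2. No doublet caller was run here, and the cells were used as deposited. Counts were summed per mouse and cluster and tested with edgeR 4.0.16 (TMM, its filter on low counts, quasi-likelihood test, Benjamini-Hochberg) and DESeq2 1.42.0 in R 4.3.3. Sums, shares and figures were made with Python 3.11.15, numpy 2.4.6, pandas 2.3.3, scipy 1.17.1 and matplotlib 3.10.9, and the code was tested on simulated data. Clusters needed 10 cells in at least 2 mice per group. Intervals are 95% and, like the floors of 3 counts, cover counting error only. Gene spans and coordinates are from GENCODE vM21.

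The genes named are, in each cluster with calls, up to 6 largest rises and 6 largest falls among called genes whose groups did not overlap, called members of the lists, the first 4 genes of a list described, genes called alike in the most clusters, and Ryk; gene models named by a number were counted but not described, except Gm26870, Gm10801 and Gm42418, which were named after their values were seen, and some genes under this rule are not reported here. The mice and the lists were chosen with earlier results of these data known. The batch column of the cell table equals the replicate number; of 48 pairs of conditions, 9 correlated above 0.1 within the number (median -0.0255), among them all 5 pairs of WT and cKO uninjured mice (0.194 to 0.376). Alternatives were other scalings, no filter, DESeq2, the replicate block, genotype as a term, at least 30 cells per mouse, all mice in 1 fit, cells of at least 1000 UMIs, other sets of uninjured mice, the conditions of the cell names, and leaving out each mouse.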

Additional observations from a re-analysis of the deposited data

Results flagged for a closer look

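In 12 of 231 groups of 4 mice, 1 mouse lay so far from the other 3 that the gap exceeded 0.829 of the group's range; chance alone gives about 1 in 20 groups. WT 14 d replicate 1 was that mouse in 8 of them. In Cluster 10 it had 673 CPM of Rpl23a (others 1020, 1040 and 979), 738 of Gphn (568, 561 and 538), 117000 of Apoe (48900, 36000 and 38200) and 2700 of Apoc1 (184, 152 and 350). In Cluster 6 it had 34200 of Apoe (8010, 9860 and 6240), in Cluster 5 383 of C3 (34.9, 56.2 and 55.5), in Cluster 4 304 of Serpina3n (86.1, 97.2 and 94.6) and in Cluster 9 2990 of Rgs5 (7320, 7360 and 7350). Among the uninjured mice, cKO replicate 1 had 29.8% of its cells in Cluster 3 (others 8.98%, 9.18% and 9.45%), 846 of Aqp4 in Cluster 7 (1500, 1500 and 1490) and 107 of C4b in Cluster 4 (27.2, 25.2 and 17.6). WT uninjured replicate 1 had 738 of Glul in Cluster 7 (536, 545 and 561).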

How the results depend on the processing

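The 127 genes named had 2275 values under the alternatives: 1698 kept their direction and their side of the threshold, 389 no longer passed it, 130 newly passed it and 58 changed direction, 21 of these with 1 mouse left out and 7 in called genes. The cause of each change was not tested, and Clusters 2 and 10, with 8218 to 27330 UMIs in some uninjured mice, limit what the calls can show. Counts below run over Clusters 1 to 11 where all are given, and gene values are log2 differences. With DESeq2, 30, 2, 128, 8, 3, 16, 16 and 32 genes were called in Clusters 1 to 8, 83 in Cluster 10 and 1 in Cluster 11 (319 in all), and Aqp4 in Cluster 7 gave 0.03. With no filter on low counts, 210, 9, 573, 89, 31, 63, 52, 34, 11, 143 and 8 genes were called (1223 in all), and Aqp4 in Cluster 7 gave 0.16 and Vcan in Cluster 11 0. With median-of-ratios size factors, Cluster 3 had 7 calls. With total counts, Clusters 2, 3, 4, 6, 7 and 10 had 738, 49, 2, 2, 5 and 27 (823 in all), and Aqp4 in Cluster 7 gave 0.07 and Mfsd2a in Cluster 1 0.11. Apoe, Ctsb and Ctsd in Cluster 10 then passed edgeR's test (adjusted p = 0.00315, 0.00754 and 0.00519).

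With the replicate number as a block, Clusters 2, 3, 4, 5 and 10 had 7, 3, 6, 2 and 35 calls; the block changed no other call of a gene named outside those clusters. Permutation of shares within the replicate number gave p = 0.0556 and adjusted p = 0.472 for Clusters 1 and 10, in place of 0.0286 and 0.243. With at least 30 cells per mouse, 467 genes were called in the 10 clusters that could be fitted (219 in Cluster 2, and 213 in Cluster 11, where 1 WT uninjured and 2 cKO 14 d mice remained and injury cannot be told apart from genotype), and H2-D1 in Cluster 4 gave -0.02 and Mag in Cluster 8 -0.16. With all mice of the series in the fit, 137 were called. With genotype as a term Clusters 2, 3 and 10 had 3, 9 and 61 calls (77 in all) and H2-D1 in Cluster 4 gave -0.02, and with cells of at least 1000 UMIs the share of Cluster 9 differed by -0.297 points.

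Against the uninjured replicates 2 alone, 1004, 219, 935, 189, 115, 10, 32, 313, 18, 49 and 7 genes were called (2891 in all). The shares of Clusters 4, 7 and 11 differed by 5.64, 0.566 and 1.28 points, and H2-D1 in Cluster 4 gave -0.23, Vcan in Cluster 11 0.52, Syt1 in Cluster 3 0.56 and Vcam1 in Cluster 1 -0.17. Among the genes called there by edgeR were Il33 (1.42, adjusted p = 0.0442) and Hmgcs1 (-1.88, 0.00646) in Cluster 4 and Snap25 (-1.26, 0.00727) in Cluster 3. Against the replicates 1 alone, chosen after seeing the data, Clusters 1 to 10 had 20, 123, 73, 8, 1197, 0, 12, 5, 9 and 0 calls (1447 in all). There the shares of Clusters 2, 5, 6, 9 and 12 differed by 4.31, 6.99, -0.142, -1.4 and 0.565 points. Gene values there were 0.18 for Ccl12, 1.85 for Gphn and -0.4 for Cx3cr1 in Cluster 10, -0.05 for Glul and 0.18 for Aqp4 in Cluster 7, and 0.17 for Grb14, 0.8 for Mal, 1 for mt-Co2, 6.82 for Rpl15 and 1 for Rpl36al in Cluster 2. They were -0.22 for Il33, 0.46 for Mbp, 0.3 for Mobp and -0.32 for Mag in Cluster 4, -0.24 for H2-D1, 0.5 for Mbp and -0.54 for Mag in Cluster 8, 0.24 for Jun in Cluster 3 and 0 for Mfsd2a in Cluster 1. Under the conditions of the cell names, Clusters 2, 3, 6 and 10 had 0, 0, 0 and 1 calls (3 in all), and Glul in Cluster 7 gave -0.11, Mobp and Mag in Cluster 4 0 and -0.01, Jun in Cluster 3 0.2, Mfsd2a in Cluster 1 0.06 and Kcnj8 in Cluster 9 -0.04.

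When single mice were left out, the lowest and highest counts were 0 and 233, 0 and 219, 0 and 117, 0 and 9, 0 and 115, 0 and 19, 0 and 13, 0 and 313, 0 and 1, 2 and 64, and 0 and 7 in Clusters 1 to 11, and 6 and 1008 in all. Shares ran from -1.89 to 2.53 points in Cluster 4, -3.1 to 2.04 in Cluster 5, -0.277 to 1.09 in Cluster 9, -0.669 to 0.482 in Cluster 11 and -0.316 to 0.478 in Cluster 12. Gene values ran from -0.05 to 0.41 for Ctsh in Cluster 10, -0.07 to 0.18 for Glul and -0.15 to 0.11 for Aqp4 in Cluster 7, -0.02 to 0.55 for H2-D1 and -0.14 to 0.31 for Mag in Cluster 4, and -0.16 to 0.4 for Mag in Cluster 8. They ran from -0.49 to 0.52 for Vcan in Cluster 11, -0.61 to 0.03 for Jun and -0.65 to 0.05 for Vamp2 in Cluster 3, and -0.03 to 0.3 for Ocln and -0.09 to 0.67 for Vcam1 in Cluster 1.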
